A study of Caenorhabditis elegans with 18 samples.

Results

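The 10 genes described here, cbd-1, perm-2, perm-4, egg-1, egg-2, egg-3, chs-1, cpg-1, cpg-2 and cpg-3, take part in building the eggshell of the nematode Caenorhabditis elegans. They were taken by name from 45461 rows of the deposited gene tables. RNA was measured in N2, the wild type, and in strain MT23643, written hira-1(-), which carries the allele hira-1(gk835598). HIRA is a histone chaperone that places the histone variant H3.3 into chromatin outside DNA replication. Both strains were kept at 20°C on bacterial lawns of OP50, and RNA came from whole animals at the L4 larval stage, when gametes begin to form, and from adults. The values come from 8 libraries, namely replicates 1 and 2 of N2 L4, hira-1(-) L4, N2 adults and hira-1(-) adults. The series has 18 samples. The others, among them a further replicate of each of these groups, match no column of the deposited values and were not analysed here. Adult age and any difference between the strains other than the allele are not given in the labels.

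An oocyte of this animal is fertilised inside the mother and completes its shell within minutes of sperm entry, from proteins and RNA that it already carries. The shell is laid down from the outside in. A vitelline layer forms first, a layer of chitin follows, then a layer of chondroitin proteoglycans, and a lipid-rich permeability barrier closes the embryo off. CBD-1 is a protein with chitin-binding domains that holds the vitelline layer together, and PERM-2 and PERM-4 belong to that layer. EGG-1 and EGG-2 are oocyte surface proteins with low-density lipoprotein receptor repeats that are needed for fertilisation. EGG-3 is an inactive relative of tyrosine phosphatases that sits at the oocyte cortex and helps to start egg activation. CHS-1 is the chitin synthase of the eggshell. CPG-1 and CPG-2 carry chondroitin chains and bind chitin, and CPG-3 is a chondroitin proteoglycan of the eggshell.

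Libraries held between 26010300 and 31174600 estimated counts. The smallest count of any eggshell gene was 239, for egg-2 in replicate 2 of N2 L4. The labels do not say whether replicates were separate cultures, so p-values measure the spread between these libraries, which may be technical. The N2 L4 replicates differed for this group of genes, since all 10 were higher in replicate 1, by a ratio of 1.15 to 1.39 in CPM, the estimated count scaled to a common library size. In N2 adults the ratio of replicate 1 to replicate 2 ran from 0.933 to 1.02. The hira-1 transcript itself was at 32.9 and 37.4 CPM in N2 larvae and 23.7 and 25.3 CPM in mutant larvae. Adult values were 108 and 109 CPM for N2 and 40.0 and 40.6 CPM for the mutant. It was lower in the mutant at both stages (edgeR adjusted p = 3.3e-05 at L4 and 2.0e-09 in adults). The adult cuticle collagen gene col-19, named after its values were seen, was at 103 and 146 CPM in N2 larvae and at 2510 and 2685 CPM in N2 adults. In the mutant it was at 40.8 and 58.1 CPM at L4 and, lower than in N2, at 664 and 671 CPM in adults. Its part in the eggshell results was not tested.

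All 10 are protein-coding genes, spread over chromosomes I (2 genes), II (1 gene), III (4 genes) and IV (3 genes) in the WBcel235 annotation. The files use another build, ce10, so no coordinates are given. The coding sequences run from 203 residues for perm-2 to 1322 residues for chs-1 in 4 to 10 exons. The genes perm-4 and perm-2 are direct neighbours on chromosome IV with no protein-coding gene between them, on opposite strands and transcribed away from each other. No other pair is adjacent, and the next closest are cpg-2 and egg-2, with 17 protein-coding genes between them. The proteins EGG-1 (551 residues) and EGG-2 (548 residues) are products of related genes, and reads that match both are divided by the authors' software, so the split between them is uncertain.

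Per transcript length, the group spanned more than an order of magnitude in every condition. FPKM, the fragments counted per kilobase of transcript at a common library size, allows genes to be compared with each other. In N2 L4 larvae perm-4 stood highest, at 52.6 and 69.1 FPKM, followed by perm-2 at 37.8 and 51.6 FPKM and cpg-2 at 37.1 and 44.3 FPKM. The ranges of perm-2 and cpg-2 overlapped, as did those of cpg-1 and cbd-1 and those of egg-1 and cpg-3. At the bottom lay egg-3, chs-1 and egg-2, between 4.87 and 6.32 FPKM, whose ranges overlapped in that order. In N2 adults cpg-2 stood first at 1110 and 1168 FPKM, and perm-2 (914 and 920 FPKM) and perm-4 (687 and 705 FPKM) followed without overlap. Adult egg-1 and cbd-1 overlapped near the middle, and chs-1 and egg-3 overlapped at the bottom near 105 FPKM. By that stage cpg-2 ranked 149th and egg-3, the lowest, 1233rd of 16770 genes tested.

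The mutant ordered the genes differently. In hira-1(-) L4 larvae cpg-2 led at 284 and 293 FPKM and cpg-1 was next at 153.5 and 189 FPKM. The vitelline layer genes cbd-1, perm-4 and perm-2 were next, between 75.8 and 89.1 FPKM. Here cbd-1 overlapped perm-4 and perm-2 overlapped egg-1, while the other neighbours in the order were separate. In hira-1(-) adults cpg-2 was at 1352 and 1355 FPKM, and cpg-1, at 845 and 990 FPKM, stood above perm-2 at 661.5 and 664 FPKM. None of the neighbours in that last order overlapped.

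**Figure D1:**
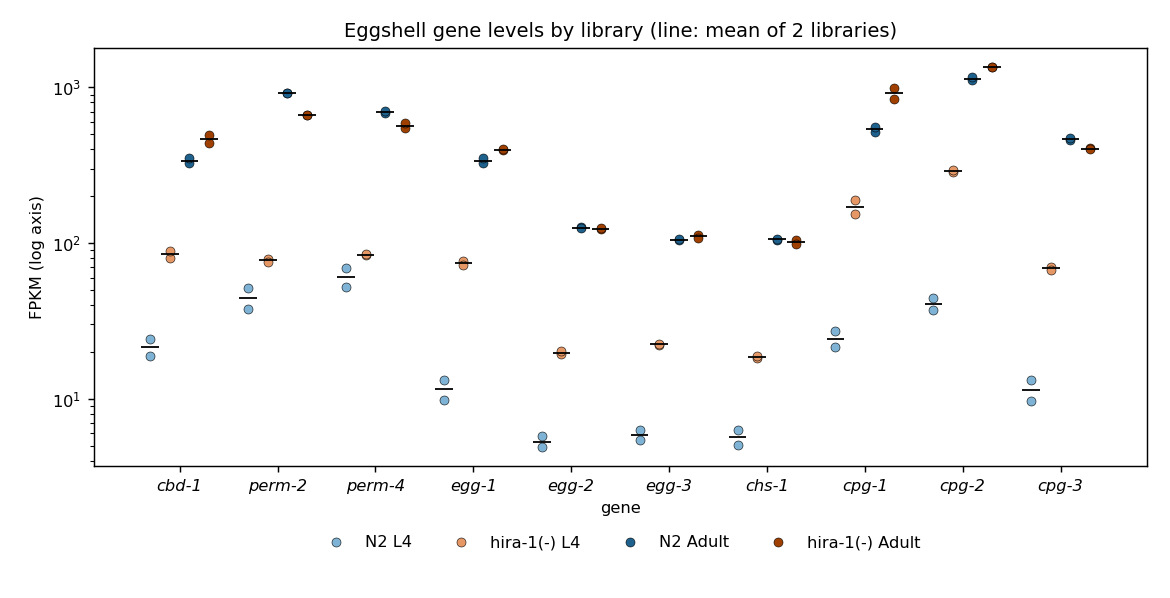
FPKM (log axis) of the 10 eggshell genes in each of 8 libraries, with a line at the mean of the 2 libraries of a group. Each gene is lowest in N2 L4 and far higher in both adult groups, and the hira-1(-) L4 points lie between them, for perm-2 and perm-4 only a little above N2 L4.

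The comparison of N2 adults with N2 L4 larvae shows the normal course of these genes. Every one of the 10 was higher in adults, by 12.8-fold for perm-4 to 45.2-fold for cpg-3 (median log2 fold change 4.58). Of all genes tested, 38.2% passed as higher and 43.4% as lower, and the median over all genes was -0.15. The proteoglycan gene cpg-3 went from 9.81 and 13.7 CPM to 525 and 538 CPM (log2 fold change 5.498, SE 0.11, edgeR adjusted p = 2.1e-11). The adult libraries lay above the L4 libraries for each gene, a separation in that direction that 41.3% of all genes showed. Summed over the 10 genes, eggshell RNA took 0.0446% and 0.035% of all counts in N2 L4 and 0.775% and 0.815% in N2 adults. In whole animals a change in the number of oocytes cannot be told apart from a change in RNA per oocyte.

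The genotypes were then compared within each stage, first in L4 larvae. All 10 passed as higher in hira-1(-), where 35.5% of all genes tested passed as higher and 22.6% as lower. Their median log2 fold change was 1.81, against 0.10 over all genes. Fold changes ran from 1.26 to 6.44, and the 2 mutant libraries lay above both N2 libraries for every gene, as for 46.6% of all genes. Eggshell RNA made up 0.166% and 0.176% of all counts in hira-1(-) L4, above N2 L4 and below either adult group.

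Among the largest rises were those of the proteoglycan genes. The level of cpg-2 was 64.7 and 78.4 CPM in N2 and 455 and 468 CPM in hira-1(-) (log2 fold change 2.69, SE 0.08, edgeR adjusted p = 7.8e-11). For cpg-1 the values were 40.1 and 50.6 CPM in N2 against 259 and 317 CPM in hira-1(-) (log2 fold change 2.67, SE 0.16, adjusted p = 1.0e-05). That gene's mutant replicates also lay furthest apart of the 10 in CPM. The third proteoglycan gene, cpg-3, was at 9.81 and 13.7 CPM in N2 and at 62.7 and 65.7 CPM in hira-1(-) (log2 fold change 2.45, SE 0.11, adjusted p = 6.1e-08). The chitin synthase gene chs-1 went from 21.5 and 27.4 CPM to 71.8 and 73.5 CPM (log2 fold change 1.57, SE 0.09, adjusted p = 4.4e-08), a log2 fold change below those of the 3 proteoglycan genes.

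Genes of the oocyte surface and cortex rose as well. The surface protein gene egg-1 was at 17.3 and 23.5 CPM in N2 and at 116 and 124 CPM in hira-1(-) (log2 fold change 2.56, SE 0.12, adjusted p = 1.7e-07). Its relative egg-2 was at 8.79 and 10.5 CPM in N2 and at 32.0 and 33.3 CPM in hira-1(-) (log2 fold change 1.76, SE 0.08, adjusted p = 1.1e-09). Per length, egg-2 stood at 43.5% and 49.4% of egg-1 in N2 L4 and at 25.1% and 28.0% in hira-1(-) L4. The cortical gene egg-3 went from 9.67 and 11.13 CPM to 35.9 and 36.3 CPM (log2 fold change 1.80, SE 0.07, adjusted p = 4.2e-10).

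Vitelline layer genes were divided. The scaffold gene cbd-1 went from 80.6 and 105 CPM in N2 to 316 and 346.5 CPM in hira-1(-) (log2 fold change 1.83, SE 0.13, adjusted p = 6.9e-06), a rise like that of egg-2 and egg-3. The neighbours perm-2 and perm-4 had the smallest rises of the group. For perm-2 the libraries were at 26.9 and 37.2 CPM in N2 and at 49.3 and 51.7 CPM in hira-1(-) (log2 fold change 0.66, SE 0.13, adjusted p = 0.0026). Without N2 L4 replicate 2 its log2 fold change was 0.34 and still passed. For perm-4 they were at 69.5 and 92.6 CPM in N2 and at 101.6 and 102.4 CPM in hira-1(-) (log2 fold change 0.33, SE 0.12, adjusted p = 0.041). The perm-4 call did not hold. It was lost in 10 of 17 alternatives, among them the replicate block (adjusted p = 0.0568) and RLE scaling, a median-ratio method (adjusted p = 0.0518). Without N2 L4 replicate 2 the log2 fold change was 0.04 (adjusted p = 0.703). Leaving out either mutant larval library (adjusted p = 0.101 and 0.115) or either N2 adult library (0.179 and 0.0806, both adjusted p) also removed it.

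**Figure D2:**
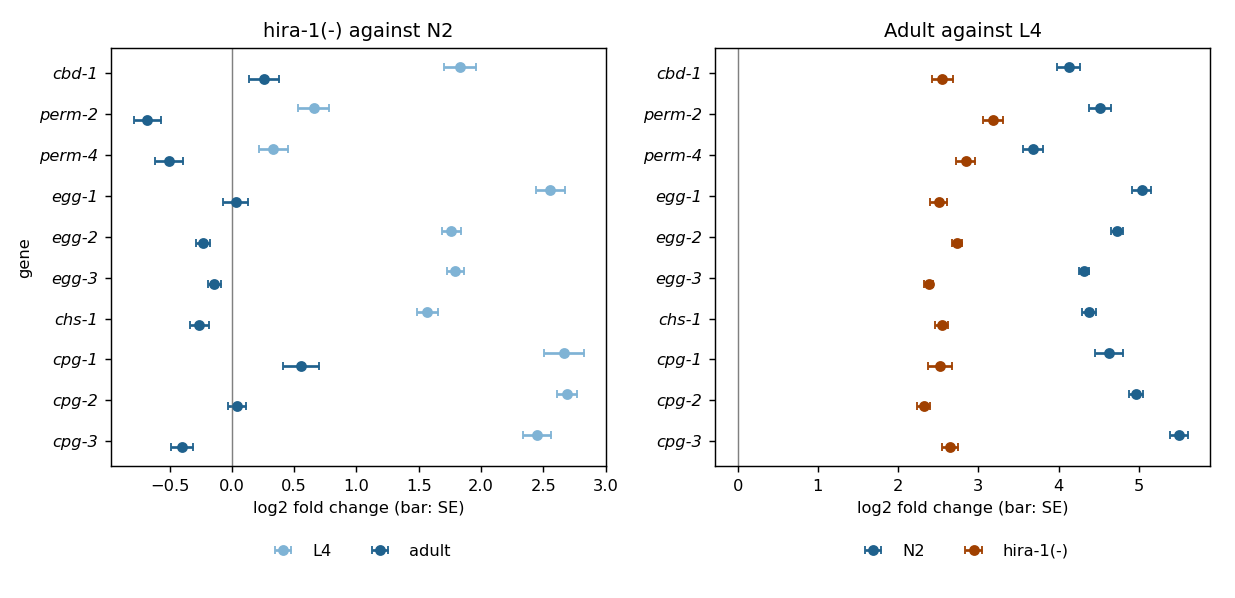
Log2 fold changes of the 10 eggshell genes with their standard errors, between genotypes at each stage (left) and between stages in each genotype (right). At L4 all points lie above 0, from 0.33 to 2.69, while in adults they run from -0.68 to 0.56, and the rise from L4 to adult is larger in N2 than in hira-1(-) for each gene.

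In adults the same comparison gave a mixed and much smaller result. One gene passed as higher and 6 as lower in hira-1(-), where 28.6% and 26.5% of all genes tested passed in these directions. The median log2 fold change of the 10 was -0.19, against 0.03 over all genes. In CPM the mutant libraries lay below both N2 libraries for 6 genes and above them for 2, as for 37.8% and 41.1% of all genes. Summed, the 10 took 0.899% and 0.950% of all counts in hira-1(-) adults, above both N2 adult libraries (0.775% and 0.815%). In TMM-scaled CPM the sums overlapped, at 8678 and 9334 in hira-1(-) and 8752 and 9113 in N2. The call of most genes turned on the scaling. With library totals in place of TMM, which centres the bulk of the genes, the median over all genes moved to 0.24, and 75.6% of the genes called were higher in place of 51.9%. Changes in adults are therefore relative to that centre. At L4 the same exchange moved the median from 0.10 to 0.24 and the higher share of calls from 61.1% to 72.3%.

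The perm genes were the most clearly lower. Adult perm-2 was at 734 and 735 CPM in N2 and at 456 and 463 CPM in hira-1(-) (log2 fold change -0.68, SE 0.11, adjusted p = 0.0013). Adult perm-4 was at 1028 and 1046 CPM in N2 and at 699 and 763 CPM in hira-1(-) (log2 fold change -0.50, SE 0.11, adjusted p = 0.0055). Both kept their call in each of 17 alternatives, library totals included. In the opposite direction cpg-1 was at 1086 and 1164 CPM in N2 and at 1507 and 1801 CPM in hira-1(-) (log2 fold change 0.56, SE 0.14, adjusted p = 0.016). That call was lost without a low-count filter (adjusted p = 0.0729), when either N2 adult library was left out (adjusted p = 0.111 and 0.0648) and when the second mutant adult library was (adjusted p = 0.0664).

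Lower calls of the remaining genes depended on the scaling. The third proteoglycan gene was lower, with cpg-3 at 525 and 538 CPM in N2 and at 399 and 405 CPM in hira-1(-) (log2 fold change -0.40, adjusted p = 0.0033). The log2 fold changes of chs-1 (-0.26), egg-2 (-0.23) and egg-3 (-0.14) also passed, with adjusted p of 0.011, 0.0032 and 0.033. With library totals none of these 4 passed, and egg-3 lay above 0 (0.07). Leaving out replicate 2 of N2 adults (adjusted p = 0.0694) or of mutant adults (0.0775) also removed the chs-1 call. The egg-3 call was lost on leaving out replicate 2 of N2 adults (adjusted p = 0.11) or either mutant adult library (0.0804 and 0.152). Neither cpg-2 (0.04) nor egg-1 (0.03) passed, and in CPM with TMM scaling their genotypes' libraries overlapped. In FPKM, which does not use that scaling, both mutant libraries lay above both N2 libraries for cpg-2 (1352 and 1355 against 1110 and 1168) and for egg-1 (397 and 399.5 against 326.5 and 351). The cpg-2 difference passed as higher with library totals (log2 fold change 0.25, adjusted p = 0.0102) and with limma on log2 FPKM at either pseudocount (adjusted p = 0.0237 and 0.0262). For cbd-1, at 1567 and 1679 CPM in N2 and at 1821 and 2069 CPM in hira-1(-), the log2 fold change was 0.26 (adjusted p = 0.1), which did not pass. It passed as higher in 6 alternatives, namely library totals (log2 fold change 0.47, adjusted p = 0.00558), limma at either pseudocount (adjusted p = 0.00655 and 0.00884), the compared groups alone (adjusted p = 0.00508) and leaving out either N2 larval library (adjusted p = 0.00835 and 0.00782).

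The stages differed in the effect of genotype for each gene. The genotype log2 fold change was lower in adults than at L4 by 0.84 for perm-4 to 2.85 for cpg-3, and all 10 passed this test of the difference itself, where 50.4% of all genes tested passed, 20.7% as higher and 29.7% as lower. Seen from the side of development, the genes rose from L4 to adult by 4.99-fold (cpg-2) to 9.09-fold (perm-2) in hira-1(-), and 36.0% of all genes tested passed as higher there and 38.4% as lower. Adult libraries lay above the L4 libraries for each gene, as for 41.6% of all genes. These comparisons share the L4 and adult libraries with those above and are not separate evidence. Set side by side, perm-4 had the smallest stage rise of the 10 in N2 and the second largest in hira-1(-), while cpg-2 had the third largest in N2 and the smallest in hira-1(-).

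The make-up of the eggshell RNA also differed between genotypes at both stages. Of the summed FPKM of the 10 genes, perm-4 held 26.5% and 25.9% in N2 larvae and 9.44% and 9.09% in mutant larvae. The share of cpg-2 was 17.0% and 18.3% in N2 larvae and 32.0% and 31.4% in mutant larvae. In adults perm-2 held 19.6% and 18.9% in N2 and 13.3% and 12.7% in hira-1(-). The ratio of cpg-2 to cpg-1 in FPKM was 2.14 and 2.09 in N2 adults and 1.60 and 1.37 in hira-1(-) adults, while at L4 it overlapped (1.63 and 1.71 in N2, 1.85 and 1.55 in the mutant). These ratios lie within a library and do not depend on the scaling. Apart from that L4 ratio, the replicates of those named did not overlap between genotypes. Of the summed CPM, perm-2 and perm-4 together took 28.8% and 27.6% in N2 larvae and 10.1% and 9.45% in mutant larvae. In adults they took 20.1% and 19.5% in N2 and 13.3% and 13.1% in the mutant. The pair was singled out after these values were seen, so this is a description with no test.

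**Figure D3:**
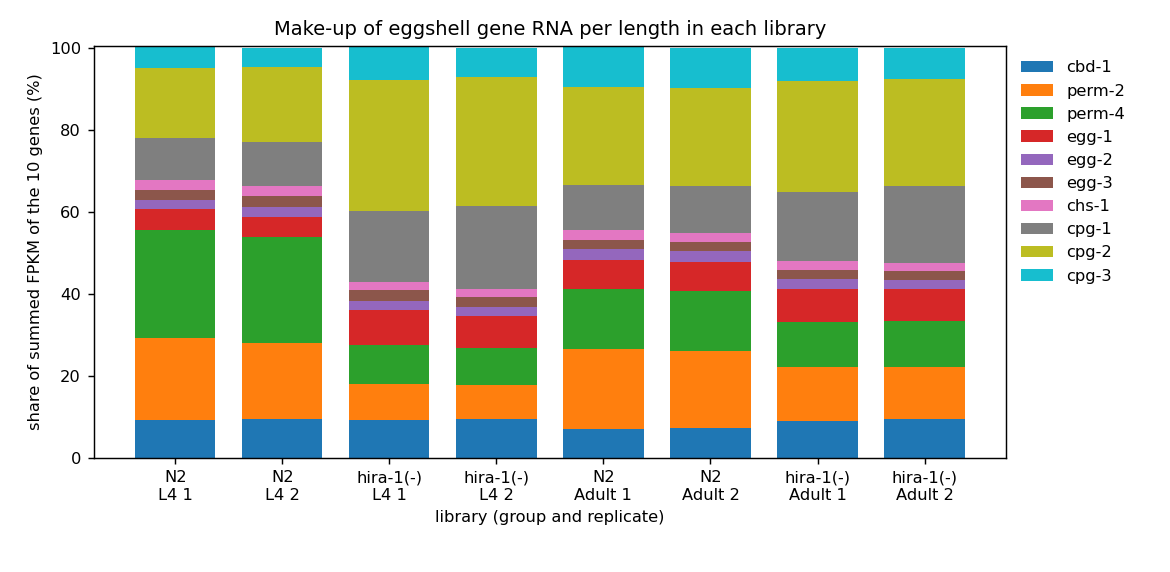
Share of each eggshell gene in the summed FPKM of the 10 genes (percent, stacked to 100), for each of 8 libraries. The bands of perm-2 and perm-4 are narrower in hira-1(-) than in N2 at both stages, and that of cpg-1 is wider.

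Genes that supply the shell's materials were also examined, in lists of known roles. At L4, 35.5% of all genes tested passed as higher in hira-1(-) and 22.6% as lower. Of 5 chitin precursor and synthesis genes in the files, 3 were higher and 1 lower in hira-1(-) at L4 (median log2 fold change 0.70). These were gfat-2 (2.20) and gfat-1 (0.70), whose enzymes make glucosamine phosphate, and gna-2 (1.75), whose enzyme acetylates it, all as log2 fold changes. The lower gene was chs-2, the chitin synthase of the pharynx, at 40.8 and 56.9 CPM in N2 larvae and 27.2 and 27.75 CPM in mutant larvae (log2 fold change -0.83, adjusted p = 3.0e-04). Unlike chs-1, it was lower in N2 adults than in N2 L4 (log2 fold change -4.11, adjusted p = 1.6e-09). Of 9 chondroitin synthesis genes, 7 were higher and 1 lower at L4 (median 0.52), with sqv-1 at 0.90, sqv-5 at 0.85 and mig-22 at 0.46 on the log2 scale. The log2 fold changes of all 9 were below those of cpg-1, cpg-2 and cpg-3. Among 4 other cpg genes, cpg-4 was higher (1.28) and cpg-7 (-1.41) and cpg-9 (-0.64) lower at L4, so the name cpg alone did not go with a rise.

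Genes listed as egg activation partners were higher at L4 too, all 5 of them (median 1.22, which is the value of egg-6), where 35.5% of all genes tested passed as higher and 22.6% as lower. They were led by egg-5 (1.82) and egg-4 (1.79), whose products are inactive phosphatase relatives that work with EGG-3. Also on the list, egg-6 (1.22) is known for the excretory duct and not for the egg. The list further holds spe-11 (0.83) and mbk-2 (0.21), named after their values were seen. From L4 to adult in N2, 4 of the list passed as higher and 1 as lower, which was spe-11 (log2 fold change -0.97, edgeR adjusted p = 1.4e-06). Of 10 permeability barrier genes 7 were higher and 1 lower (median 0.61), with perm-1 at 2.06 and the cytochrome P450 genes cyp-31A2 at 1.48 and cyp-31A3 at 1.45. The last pair is nearly identical in sequence and may share reads. The lower gene of this list was emb-8 (-0.41, edgeR adjusted p = 7.7e-06), while perm-3 (0.06) and pod-2 (0.39) did not pass. These were named after their values were seen. Of 5 cortical granule genes 2 were higher and 1 lower (median 0.08), near the shares over all genes. Among them sep-1, the separase gene, was at 0.57 and rab-6.2 at -0.44. The caveolin gene cav-1 had 2.12, and 3.18 and 1.39 without N2 L4 replicate 1 and 2, from a level of 0.253 CPM in N2 L4.

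In adults each of these lists held calls in both directions, except chondroitin synthesis. Over all genes tested 28.6% passed as higher and 26.5% as lower, and several of the lists lay near these shares. The counts higher and lower were 2 and 2 of 5 chitin genes (median -0.10), 0 and 4 of 9 chondroitin genes (-0.10), 2 and 1 of 4 other cpg genes (0.08), 1 and 2 of 5 egg activation genes (0.09), 1 and 3 of 10 permeability barrier genes (-0.02) and 1 and 3 of 5 cortical granule genes (-0.12), with median log2 fold changes in parentheses.

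Oocyte genes with no part in the shell were also high in mutant larvae. All 13 of that list were higher in hira-1(-) L4 (median 1.99, range 0.97 to 3.296), against 35.5% of all genes tested. In adults 4 of 13 were higher and none lower (median 0.03), near the 28.6% of all genes that passed as higher. Of those 4, puf-3 (0.16, adjusted p = 0.043) lost its call with RLE scaling (adjusted p = 0.259), with DESeq2 (0.355), on leaving out any 1 adult library (0.0719 to 0.451) and on leaving out either mutant larval library (0.0715 and 0.0723). The smallest of the L4 rises lay above those of perm-2 and perm-4. Over the 8 libraries, the centred log2 CPM profile of egg-2 lay nearest to the mean profile of the 10 (root mean square difference 0.08), and perm-4 (0.57) and perm-2 (0.47) lay furthest. The distance of perm-2 to perm-4 was 0.33, and to the other 8 genes it ran from 0.41 (chs-1) to 0.85 (cpg-1). Among named genes outside the group, the 8 nearest to the mean profile were marc-3 (0.13), rmd-1 (0.13), nasp-2 (0.13), trcs-1 (0.14), the yolk receptor gene rme-2 (0.14), the maternal RNA-binding protein gene mex-6 (0.14), grif-1 (0.14) and ceh-86 (0.15). Their log2 fold changes at L4 ran from 1.56 for grif-1 to 2.17 for rmd-1. These genes were picked for their closeness over the same 8 libraries, so fold changes like those of the group follow from the choice. The level of ceh-86 in N2 L4 was low, at a mean of 0.146 CPM. The level of marc-3 was 7.31 CPM in both N2 larval libraries and 25.2 and 25.6 CPM in mutant larvae. In adults it was 153 and 156 CPM in N2 and 141 and 147 CPM in the mutant.

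**Figure D4:**
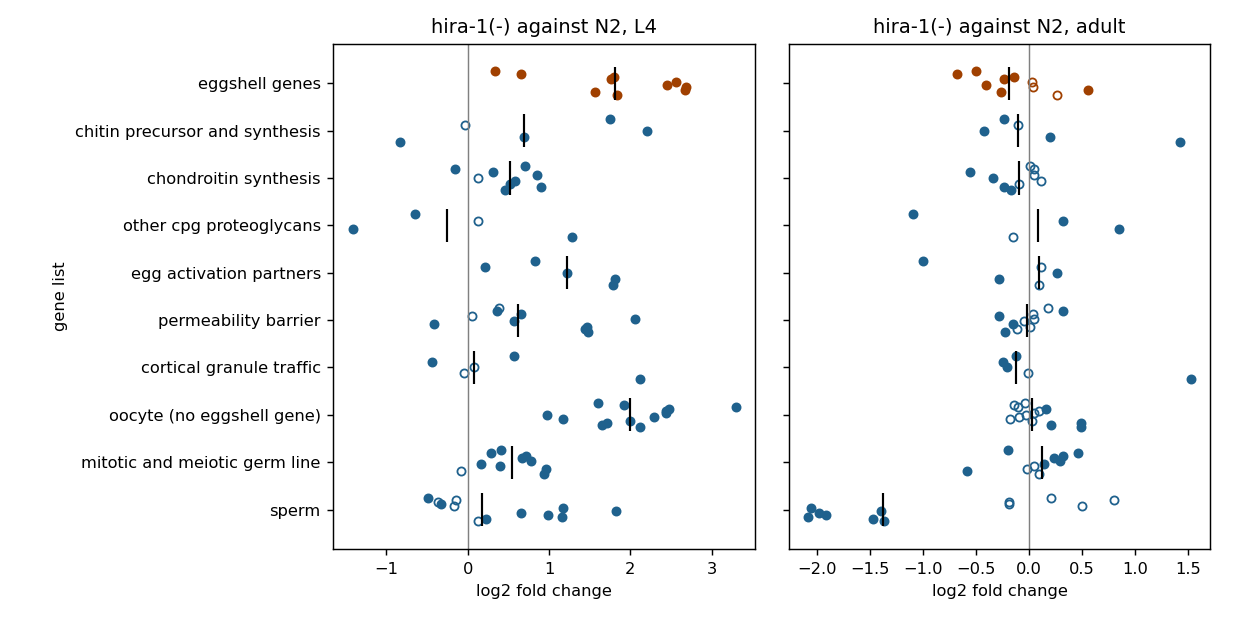
Log2 fold changes between hira-1(-) and N2 of the eggshell genes and of the lists of related genes, at L4 (left) and in adults (right), with filled points for adjusted p under 0.05, open points for the rest and a black line at each list's median. Eggshell, egg activation and oocyte genes lie to the right of 0 at L4. In adults they lie on both sides of 0, from -0.68 to 0.56, -1.003 to 0.267 and -0.18 to 0.49 in that order, and 7 of 12 sperm genes lie far to the left in adults. The egg activation point at -1.003 is spe-11.

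Markers of other cells are given beside these results, where 35.5% of all genes tested passed as higher at L4 and 22.6% as lower. At that stage 9 of 10 germ line markers were higher in hira-1(-) (summed 1569 to 1623 CPM in N2 and 2201 to 2232 CPM in hira-1(-)), and of 12 sperm markers 6 were higher and 2 lower (369.5 to 413 against 627 to 629 CPM). Of 7 body wall muscle markers 6 were lower (11740 to 15860 against 7192 to 8142 CPM), as were 6 of 7 intestine markers, with 1 higher (2698 to 2976 against 2014 to 2123 CPM). Of 7 sheath and spermatheca markers 4 were lower (752 to 760.5 against 697 to 722 CPM). Of 6 hypodermis markers 3 were lower and 1 higher (1505 to 1648 against 921 to 929 CPM), and of 6 pharynx markers 1 was higher and 1 lower (223 to 367 against 209 to 238 CPM, which overlap). Embryo markers had 2 higher and 1 lower of 6 tested, and summed to 29.4 to 29.8 CPM in N2 larvae and 40.4 to 41.02 CPM in mutant larvae, where med-1 was at 0. Within that sum pal-1 was at 12.9 and 14.3 CPM in N2 larvae and 28.0 and 29.1 CPM in mutant larvae. The higher sum therefore rests on pal-1 (log2 fold change 1.06) and does not stand for the other embryo markers. Of these, pes-10 was higher, from at most 0.036 CPM in N2 L4, and elt-7 was lower (-0.42). The pal-1 changes at L4 and from N2 L4 to N2 adult (3.29) lay within the ranges of the oocyte list (0.97 to 3.296 and 3.23 to 5.80). Whether its RNA came from oocytes or embryos was not tested.

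In adults, where 28.6% of all genes tested passed as higher and 26.5% as lower, 7 of 12 sperm markers were lower (416 to 454 CPM in N2 against 124 to 138 CPM in hira-1(-)), and 5 of 6 embryo markers tested were higher (142.6 to 143.3 against 149 to 157 CPM), with med-2 at 0 in N2. Most of that embryo sum was pal-1, at 132.6 and 133.9 CPM in N2 and 130.4 and 137.2 CPM in hira-1(-). It did not pass (log2 fold change 0.006, edgeR adjusted p = 0.93). Of the 6 embryo markers tested, 3 were higher and 2 lower in N2 adults than in N2 L4. Those lower were elt-7 and hlh-1, named after their values were seen (log2 fold changes -1.15 and -1.62). Both were among the 5 higher in hira-1(-) adults (0.48 and 0.94). Whether that count follows the amount of embryo RNA was not tested. Germ line markers had 5 higher and 2 lower of 10 (2933 to 3129 against 2957 to 3141 CPM). For muscle 3 were higher and 3 lower of 7 (3895 to 4284 against 3909 to 4327 CPM), and for intestine 1 higher and 2 lower of 7 (20550 to 24660 against 11480 to 13830 CPM). The intestine sum does not follow each gene. It includes vit-2 and vit-6, named after their values were seen, with log2 fold changes of -0.88 (edgeR adjusted p = 0.087) and -0.93 (adjusted p = 0.022). The 1 higher gene was ifb-2, at 141.5 and 146.7 CPM in N2 and 321.8 and 338.1 CPM in hira-1(-). For sheath and spermatheca 2 were higher and 1 lower of 7 (685 to 712 against 764 to 797 CPM). Hypodermis markers had 4 higher and 1 lower of 6, while their sum was lower (2546 to 2726 against 736.5 to 747 CPM), and pharynx markers 4 higher of 6 (48.7 to 62.1 against 120.4 to 129.6 CPM). Most of the hypodermis sum was col-19, at 2510 and 2685 CPM in N2 adults and 664 and 671 CPM in hira-1(-) adults. The part of any of these cells in the eggshell results was not tested.

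Genes that flank the 10 on the chromosome were counted in the same way. Of 18 flanking protein-coding genes outside the group, 15 were tested, and 7 were higher and none lower at L4 (35.5% and 22.6% of all genes tested), and 3 were higher and 3 lower in adults (28.6% and 26.5% of all genes tested). In the test of the difference between the stages, 1 of the 15 was higher and 7 were lower (20.7% and 29.7% of all genes tested). Whether flanking genes change together with the 10 was not tested. Of the outer flanks of the perm pair, C44B12.6 was tested at L4 and did not pass, with a log2 fold change of 0.61 (SE 0.52, adjusted p = 0.33).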

How the data were processed

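Libraries were poly(A)-selected and read from both ends, per the labels. The authors deposited a table of estimated counts per gene and a table of log2(FPKM + 1) values. The submitters' processing notes name RSEM 1.2.15 with Bowtie 1.0.1, the build ce10, and SAMtools 0.1.19. No strand setting is stated. Of 18 columns, 8 match a sample's label (1 with a digit in place of a letter), and 10 were not used. Gene names come from a WBcel235 table, which matched 44080 of 45461 rows.

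Estimated counts were rounded and tested with edgeR 4.0.16 (R 4.3.3) over 16770 genes that passed its expression filter (minimum count 10, 15 in total). The fit used TMM scaling and quasi-likelihood over 4 groups, with 4 residual degrees of freedom, and Benjamini-Hochberg adjustment over all genes with a threshold of 0.05. SE is the log2 fold change divided by the root of the F statistic. FPKM was computed back from the deposited log2 values. Members and gene lists were chosen with earlier results of these data known. The named-gene rule took the 10 genes, the 8 named genes nearest in profile, up to 3 genes with the smallest p at L4 per list, and hira-1. Of marker lists, counts are given in place of names, apart from genes named beside a sum. The listed genes uap-1, cpg-5, cpg-6, syn-4 and vet-4 were not matched by name. Alternatives were RLE and library-total scaling, 2 other filters, DESeq2 1.42.0, limma 3.58.1 on log2 FPKM with pseudocounts of 1 and 0.1, a replicate block, the compared groups alone, and leaving out each library.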

Additional observations from a re-analysis of the deposited data

Results flagged for a closer look

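The genotype effect differed between the stages for all 10 eggshell genes, by edgeR's test of the difference itself. The genotype log2 fold change in adults minus that at L4 was -2.85 for cpg-3, -2.65 for cpg-2, -2.53 for egg-1, -2.11 for cpg-1, -1.996 for egg-2, -1.94 for egg-3, -1.83 for chs-1, -1.57 for cbd-1, -1.33 for perm-2 and -0.84 for perm-4, with adjusted p from 1.1e-09 (cpg-2) to 0.0031 (perm-4). Of all genes tested, 50.4% passed this test in either direction. Groups of 2 libraries are too small to look for outlying samples.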

How the results depend on the processing

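The difference between the stages and both stage comparisons kept their direction and call for all 10 genes in the 16 or 17 alternatives run. At L4, 9 genes kept theirs in 17 alternatives, perm-4 being the exception. The count of adult eggshell genes called higher (1) was 3 with library totals and with limma on either log2 FPKM scale, 0 without a filter, 2 with the compared groups alone, and 0 to 2 when 1 library was left out. The count called lower (6) was 2 with library totals and with both limma fits. Adult egg-3 turned from -0.14 to 0.067 with library totals and to 0.069 with both limma fits. Those fits do not apply the TMM centre, and the cause was otherwise not tested. Over all genes the share of L4 calls that were higher was 61.1%. It was 50.9% with a minimum of 1 CPM in 3 libraries and 50.5% with the compared groups alone. With library totals it was 72.3%, and with limma at pseudocounts of 1 and 0.1 it was 72.5% and 74.3%. The L4 shares over all genes given above therefore depend on these settings.

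The titles give the groups the same replicate numbers. Differences between replicates correlated across genes at -0.061 to 0.241 between groups, with -0.05 for the L4 groups, 0.239 for the adult groups and 0.241 for the hira-1(-) groups. No label says that a number marks a shared batch and each group has 2 libraries with values used here, so the numbers were not taken to pair the samples. With the replicate block 9732 genes were called at L4 in place of 9733 and 9231 in adults in place of 9235, and among eggshell genes perm-4 at L4 lost its call (0.34, adjusted p = 0.0568).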

Other observations

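Genes whose profiles over the 8 libraries lay nearest to the mean of perm-2 and perm-4 were looked for after their values were seen. They included lido-5 and B0513.4 (root mean square difference 0.14 on the log2 scale for both), F42A8.1 (0.15) and skpo-1 (0.20), and no other eggshell gene was among the nearest 8. Fold changes like those of perm-2 and perm-4 follow from this choice over the same libraries. In adults F42A8.1 and skpo-1 had the lowest log2 fold changes of the 8. The edgeR test did not pass for lido-5 (-0.38, adjusted p = 0.093) or T16G12.8 (-0.32, adjusted p = 0.065), where 26.5% of all genes tested passed as lower. The level of skpo-1 was 13.4 and 17.5 CPM in N2 L4, 17.4 and 18.4 CPM in hira-1(-) L4, 313 and 324.5 CPM in N2 adults and 162 and 176.5 CPM in hira-1(-) adults. Its adult libraries were lower in hira-1(-) without overlap, as for 37.8% of all genes (log2 fold change -0.91, SE 0.08, edgeR adjusted p = 1.0e-05). Its L4 change did not pass (0.21, adjusted p = 0.13), although it passed with library totals, both limma fits and the replicate block. Without N2 L4 replicate 1 the L4 log2 fold change was 0.30. F42A8.1 was at 7.72 and 10.4 CPM in N2 L4 and 11.6 and 11.8 CPM in hira-1(-) L4, and at 164 and 179 CPM in N2 adults and 83.2 and 90.0 CPM in hira-1(-) adults (adult log2 fold change -0.99, SE 0.09, adjusted p = 6.1e-06). Its L4 log2 fold change was 0.37 (adjusted p = 0.028), and 0.07 without N2 L4 replicate 2. The call was lost with a minimum of 1 CPM in 3 libraries (adjusted p = 0.0621) and with the compared groups alone (adjusted p = 0.142). Leaving out N2 L4 replicate 2, either mutant larval library or N2 adult replicate 1 also removed it.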
